A study of Mus musculus with 4 samples.

Results

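The genes described here build the triad of skeletal muscle and move calcium through it. They are the junctophilin genes Jph1 and Jph2, the ryanodine receptor genes Ryr1 and Ryr3, the calcium channel subunit genes Cacna1s, Cacnb1 and Cacng1, the calsequestrin gene Casq2 and the calcium pump genes Atp2a1 and Atp2a2. A probe set was taken where the array annotation assigned it to exactly 1 of these 10 genes, which gave 23 of the 34945 probe sets assigned to a single gene and 10 of 18193 genes. RNA came from 4 cultures of C2C12, an established line of mouse myoblasts whose cells fuse into multinucleated muscle fibres once they differentiate. In 2 cultures a stably transduced pLKO.1 lentiviral vector expressed an shRNA against Sfmbt1, and in the other two the same vector expressed a control shRNA, which the labels call scrambled in one field and name for luciferase in another. The cells were kept as growing myoblasts in medium with 20% serum and 2 ug/ml puromycin, and no differentiation medium is named. The labels describe the cultures of a group as grown independently and say nothing of whether each had its own transduction, so that p-values measure the spread between cultures.

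In muscle the triad is the place where the surface membrane, folded inward as the T-tubule, meets the calcium store of the sarcoplasmic reticulum. The voltage sensor in the T-tubule opens the ryanodine receptor of the store, calcium flows out and starts contraction, calsequestrin holds calcium inside the store, and SERCA pumps return it. Junctophilins tie the 2 membranes to each other, and many of these genes become active when myoblasts differentiate.

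Sfmbt1, the targeted gene, had lower signals on both knockdown arrays than on both control arrays in each of its 5 probe sets. A separation in this direction was seen in 24.0% of all tested probe sets. Probe set 1443853 lay in the background range on every array and was not tested, so it gives no level or fold. In probe set 1422894 the signal was 74.6 and 16 in the knockdown, against 242 and 278 in the control (log2 -2.35, SE 0.44, limma adjusted p = 0.0219), and its second knockdown array lay in the background range, so that the drop is a bound, at least 3.77-fold when that array is put at its background. The other 3 tested probe sets stood at 43.7% to 69.2% of the control and did not pass. With no filter on dim probe sets, probe set 1422894 did not pass either (adjusted p = 0.165). Background, set on each array by 27 bacterial control probe sets, was 69.3 and 42.9 in the knockdown and 49.1 and 53.2 in the control, and knockdown replicate 1 had the lowest share of probe sets above it, 56.2% against 64.3% to 67.6% on the other arrays. All 7 myoblast markers, Myod1, Myf5 and Des among them, were tested and 0 of them passed in limma (1, Myod1, at an unadjusted p under 0.05), at summed signals of 14750 and 15530 in the knockdown against 15017 and 16875 in the control. Of 6 markers of differentiating myotubes 5 passed, all higher, with summed signals of 4210 and 4398 in the knockdown against 1293 and 1071 in the control. With no filter 3 of these 5, Myog, Myh3 and Acta1, still passed, while Mymk (limma adjusted p = 0.0957) and Tnnt3 (0.176) did not. Of 23 markers from 6 lists of other cell types (fibroblast, adipocyte, osteoblast, cardiac muscle, smooth muscle, endothelium and blood) 10 lay in the background range on all arrays and 10 were tested with 0 calls in limma, and 0 at an unadjusted p under 0.05, at summed signals of 2630.3 and 2468 in the knockdown against 2517 and 2679 in the control. The part of any of these lists in the results below was not tested. With RNA from whole cultures, fewer cells of a type and less RNA per cell cannot be told apart.

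Jph2 was lower in the knockdown in both of its probe sets, and none of the other 8 genes that could be tested passed in either direction. Of the 23 probe sets 16, from 9 genes, were bright enough to be tested, and 2 fell and 0 rose at a Benjamini-Hochberg adjusted p under 0.05 in limma. Over all 22893 probe sets tested, 1.43% were called lower, 0.961% higher and 2.39% either way, that is 220 higher and 328 lower, against 401 higher and 333 lower with each array centred on its median. At an unadjusted p under 0.05, 3 of the 16 were higher and 2 lower, against a background of 15.5% for either direction. The median log2 difference, knockdown minus control, was 0.0019 over the 16 probe sets and -0.0052 over all those tested, and 8 of the 16 had a positive difference. The groups of arrays did not overlap in 5 probe sets that were higher and 4 that were lower, where 21.6% and 24.0% of all tested probe sets did not overlap in these directions and 45.6% in either.

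**Figure D1:**
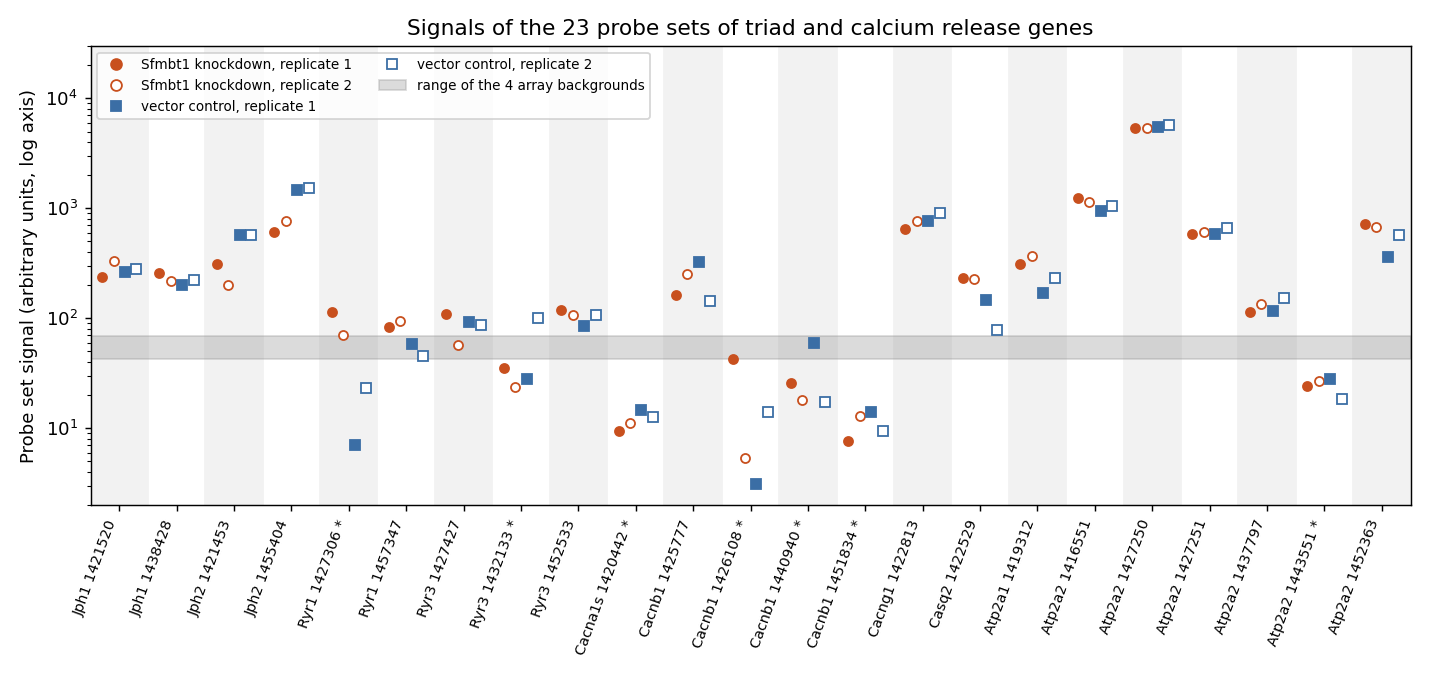
Signal of each of the 23 probe sets on each array, on a log axis, with Sfmbt1 knockdown arrays as circles and vector control arrays as squares (filled for replicate 1, open for replicate 2). The grey band spans the backgrounds of the 4 arrays, 42.9 to 69.3, and an asterisk marks the 7 probe sets that were too dim to be tested. Both Jph2 probe sets show a clear gap between circles and squares.

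Jph2 encodes junctophilin 2, the member of the family that heart muscle also relies on. In probe set 1455404 its signal was 607 and 769.6 in the knockdown, against 1455 and 1518 in the control. The knockdown mean of 689 ± 115 was 46.3% of the control mean of 1486 ± 44.8 (SD, n = 2 each; log2 -1.102, SE 0.15, limma adjusted p = 0.0042). Each knockdown array lay far under each control array, and the 4 pairings of a knockdown with a control array gave log2 differences of -1.30 to -0.90.

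In the second Jph2 probe set, 1421453, the signal was 312 and 201 in the knockdown, against 575 and 578 in the control. The knockdown mean of 256 ± 78.0 was 44.5% of the control mean of 576 ± 2.33 (SD, n = 2 each; log2 -1.15, SE 0.21, limma adjusted p = 0.0183). The control arrays were close together here and the knockdown arrays apart, and the knockdown array with the lower signal was replicate 2, whereas it was replicate 1 in the first probe set. Among the 328 probe sets called lower the median log2 difference was -0.86, and 35.7% of them lay at -1 or below, as both Jph2 probe sets did. The call of Jph2 rests on the choice of test: with no filter on dim probe sets the adjusted p was 0.0503 for probe set 1455404 and 0.119 for probe set 1421453, and without the trend of variance on signal they were 0.215 and 0.244.

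Jph1 encodes junctophilin 1, the main junctophilin of skeletal muscle. Its probe set 1421520 gave 238 and 336 in the knockdown, against 262 and 279 in the control (log2 0.060, SE 0.22, limma adjusted p = 0.933). The knockdown arrays lay on either side of the controls. Probe set 1438428 gave 256 and 217 in the knockdown, against 202 and 223 in the control (log2 0.14, SE 0.22, limma adjusted p = 0.820), and the groups overlapped again. The 95% intervals of the fit, 0.752-fold to 1.44-fold for the first and 0.795-fold to 1.53-fold for the second, leave room for a moderate change in either direction but not for a change the size of that seen in Jph2. Taken array by array, the change of Jph2 minus that of Jph1 was -1.29 to -1.16 log2 units over the 4 pairings of their probe sets. An exact two-sided permutation test of that difference over the arrays gave p = 0.333 for each pairing, the smallest p that 2 against 2 arrays allow.

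Promoter windows from RefSeq, build GRCm38.p6, were at hand for 6 of the 10 genes, from 250 bases before to 50 after an annotated transcript start. Those of Jph2, the gene that fell, and of Casq2 and Atp2a1, the genes with the highest tested differences, are shown so that the sequence beside each can be read. Capitals mark E-boxes, CANNTG, the motif read by MyoD, myogenin and other basic helix-loop-helix factors. The windows are chr2:163397944-163398243 on the minus strand for Jph2, chr3:102086165-102086464 on the plus strand for Casq2 and chr7:126463024-126463323 on the minus strand for Atp2a1.
Jph2: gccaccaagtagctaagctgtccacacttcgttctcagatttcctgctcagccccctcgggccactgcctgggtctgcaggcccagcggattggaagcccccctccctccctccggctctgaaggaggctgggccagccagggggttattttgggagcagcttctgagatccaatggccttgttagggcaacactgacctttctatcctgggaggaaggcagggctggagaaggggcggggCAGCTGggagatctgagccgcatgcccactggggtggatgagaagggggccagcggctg
Casq2: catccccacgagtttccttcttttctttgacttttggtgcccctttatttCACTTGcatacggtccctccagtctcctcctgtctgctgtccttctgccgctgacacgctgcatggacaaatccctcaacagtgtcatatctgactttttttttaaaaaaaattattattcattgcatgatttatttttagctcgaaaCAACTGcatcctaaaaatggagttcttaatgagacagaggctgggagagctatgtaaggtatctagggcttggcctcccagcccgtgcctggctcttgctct
Atp2a1: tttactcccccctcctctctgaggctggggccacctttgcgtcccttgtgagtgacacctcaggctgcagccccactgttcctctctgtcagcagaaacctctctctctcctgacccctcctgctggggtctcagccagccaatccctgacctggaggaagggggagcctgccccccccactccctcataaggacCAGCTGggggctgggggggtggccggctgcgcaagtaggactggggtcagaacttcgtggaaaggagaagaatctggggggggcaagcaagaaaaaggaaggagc

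Jph2, shown by the first of its 2 overlapping windows, and Atp2a1 each held 1 E-box, in both cases the palindrome CAGCTG, which began 9 bases before the transcript start in Jph2 and 55 bases before it in Atp2a1. Casq2 held 2 E-boxes of other sequence and 1 match to the MEF2 site, and Cacna1s, whose signal was in the background range, held 2 E-boxes of which 1 was CAGCTG. The window of Ryr1 and 1 of the 2 windows of Cacnb1 held none. Of all 32851 windows of this length in the table, 72.3% held an E-box, 16.3% held CAGCTG and 3.19% held a MEF2 site, with motifs read on both strands. The positive difference of Atp2a1 did not pass the test. The windows shown were chosen by their differences, and any part of these motifs in the differences was not tested.

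The release channels are large tetramers in the membrane of the store, Ryr1 being the channel of skeletal muscle and Ryr3 a second form found in developing muscle. Ryr1 probe set 1427306 gave 114 and 70.7 in the knockdown, against 7.0 and 23.2 in the control. Both knockdown arrays lay above background and both control arrays within its range, so that the knockdown was at least 1.58-fold higher on the log2(signal + 16) scale. That probe set was too dim for the test, and in the fit with no filter its adjusted p was 0.211.

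The tested Ryr1 probe set, 1457347, gave 83.4 and 94.6 in the knockdown, against 58.8 and 45.2 in the control, where the second array lay in the background range. The log2 difference was 0.63 (SE 0.42, limma adjusted p = 0.519), a bound of 1.46-fold if that array is put at its background. Both Ryr1 probe sets had higher signals on each knockdown array than on each control array, a separation seen in 21.6% of all tested probe sets. Their signals were close to background, and neither was called. The control mean of probe set 1457347, 52.0, lay under the filter limit of 57.3, so it was tested only through its knockdown arrays.

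Ryr3 showed no such separation in any of its 3 probe sets. Probe set 1452533 gave 119.7 and 107 in the knockdown, against 84.4 and 108 in the control (log2 0.21, SE 0.33, limma adjusted p = 0.816). Probe set 1427427 gave 109 and 57.1 in the knockdown, against 91.8 and 86.7 in the control (log2 -0.14, SE 0.40, limma adjusted p = 0.917). The third, 1432133, was not tested, and 3 of its 4 arrays lay in the background range.

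The voltage sensor is built round the pore-forming subunit from Cacna1s, with the beta subunit from Cacnb1 inside the cell and the gamma subunit from Cacng1 in the membrane. The 1 probe set of Cacna1s gave 9.5 and 11.2 in the knockdown and 14.6 and 12.6 in the control, all in the background range. It therefore gives no level or fold for the pore in these myoblasts.

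Cacng1 was well above background, with 655 and 768 in the knockdown against 774 and 912 in the control (log2 -0.24, SE 0.16, limma adjusted p = 0.512). The arrays of the groups did not overlap, by a narrow margin, and the 95% interval ran from 0.667-fold to 1.074-fold. Of 4 Cacnb1 probe sets 1 was tested, 1425777, which gave 165 and 254 in the knockdown, against 328 and 145 in the control (log2 -0.089, SE 0.33, limma adjusted p = 0.936). The control arrays there enclosed the knockdown arrays. The other 3 had signals of 3.1 to 59.2, and 2 of them lay in the background range on every array.

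Casq2 encodes the calsequestrin of the heart and of slow and developing skeletal muscle. Its 1 probe set, whose suffix marks sets that can match more than a single transcript, gave 234 and 227 in the knockdown, against 147 and 77.7 in the control. The knockdown mean of 230.1 ± 4.88 stood against a control mean of 112 ± 48.9 (SD, n = 2 each; log2 0.99, SE 0.30), but the limma adjusted p was 0.12 (unadjusted 0.0062). The knockdown arrays were nearly equal and the control arrays far apart. Without control replicate 1 the log2 difference was 1.39 (adjusted p = 0.0296), and without control replicate 2 it was 0.59 (adjusted p = 0.423).

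**Figure D2:**
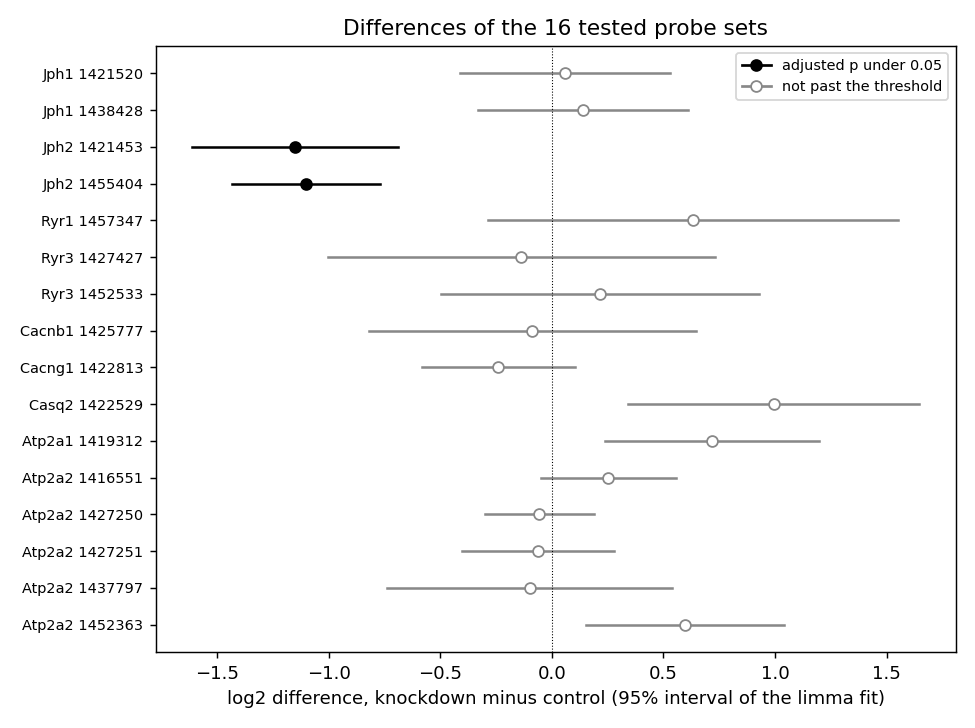
Log2 difference, knockdown minus control, of the 16 tested probe sets with the 95% interval of the limma fit. The 2 Jph2 probe sets, at -1.15 and -1.102, are the filled points with an adjusted p under 0.05. The intervals of Casq2, Atp2a1 and Atp2a2 probe set 1452363 lie above 0, and these probe sets did not pass after adjustment.

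The SERCA pumps move calcium from the cytosol back into the store by spending ATP. Atp2a1 encodes SERCA1, the pump of fast adult muscle, and gave 309.7 and 369 in the knockdown, against 171 and 233 in the control. The knockdown mean was 168% of the control (log2 0.72, SE 0.22, limma adjusted p = 0.127, unadjusted 0.007). The groups did not overlap, and the 95% interval ran from 1.18-fold to 2.29-fold. Without knockdown replicate 1 the adjusted p was 0.0382 at a log2 difference of 0.84, whereas without control replicate 1 the difference was 0.51 (adjusted p = 0.523).

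Atp2a2 encodes SERCA2, made in slow and cardiac muscle and, as a longer form, in most cells. Its probe set 1427250 gave 5412 and 5386 in the knockdown, against 5517 and 5712 in the control (log2 -0.056, SE 0.11, limma adjusted p = 0.868). The 95% interval for this probe set was 0.813-fold to 1.14-fold. Probe sets 1427251 and 1437797 differed by -0.061 and -0.100 log2 units, with overlapping groups, and probe set 1416551 by 0.25 (limma adjusted p = 0.421).

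Probe set 1452363 of Atp2a2, whose suffix marks sets that match several transcripts of a gene, gave a positive difference. It gave 723 and 670.4 in the knockdown, against 363 and 571 in the control (log2 0.59, SE 0.20, limma adjusted p = 0.174, unadjusted 0.013). The control arrays set its size, since the log2 difference was 0.91 without control replicate 2 (adjusted p = 0.0244) and 0.28 without control replicate 1 (adjusted p = 0.756). It also passed without knockdown replicate 2 (log2 0.65, adjusted p = 0.0327). The sixth probe set, 1443551, was in the background range throughout.

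**Figure D3:**
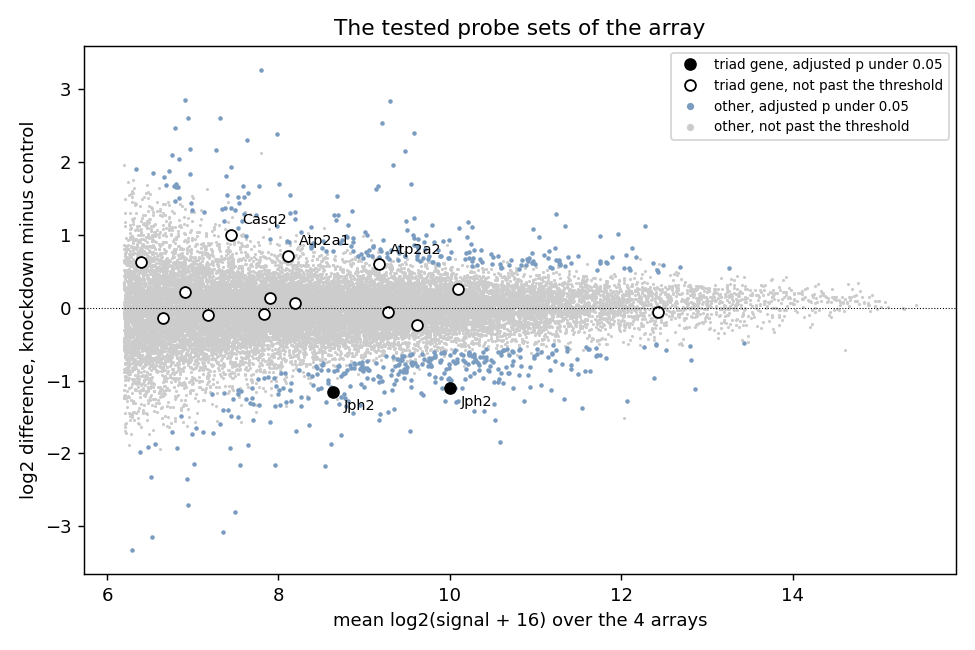
Log2 difference, knockdown minus control, against mean log2(signal + 16) for the 22893 tested probe sets, with the 16 of the triad genes as large circles (filled where the adjusted p was under 0.05). The 2 Jph2 points lie among the 328 probe sets called lower, and the other 14 lie within the grey cloud of probe sets that did not pass.

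Calcium handling was also followed in 66 companion genes, of which 59 had a probe set of their own and 45 were tested by the brightest one. In limma 1 of the 45 rose and 0 fell, against the background of 0.961% and 1.43% above. At an unadjusted p under 0.05 there were 4 higher and 2 lower of the 45, against 15.5% of all tested probe sets in either direction. Their median log2 difference was -0.0077. The gene that rose was Atp2a3, which encodes SERCA3, a pump better known from blood cells and epithelia than from muscle. Its probe set 1421129 gave 769.8 and 681 in the knockdown, against 297 and 398 in the control (log2 1.041, SE 0.18, adjusted p = 0.0145).

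A second Atp2a3 probe set, 1450124, gave 140.2 and 244 in the knockdown, against 37.8 and 55.9 in the control (log2 1.70, SE 0.38, limma adjusted p = 0.0408), at least 2.95-fold higher when the control array under background is put at its limit. The control mean of probe set 1450124, 46.85, lay under the filter limit of 57.3, so it was tested only through its knockdown arrays. Both Atp2a3 probe sets were higher on each knockdown array than on each control array, a separation seen in 21.6% of all tested probe sets. Without control replicate 1 neither passed (adjusted p = 0.0591 and 0.0592), and without knockdown replicate 2 the second did not (0.179). With no filter the adjusted p was 0.0962 for the first and 0.193 for the second, and without the variance trend 0.239 and 0.230.

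Among partners of the release channel 16 of 21 genes were tested, with 0 calls and a median log2 difference of 0.038. Triadin, from Trdn, was in the background range on all 4 arrays, and the skeletal calsequestrin gene Casq1 gave 192 and 180.1 in the knockdown, against 79.4 and 193 in the control (log2 0.52, limma adjusted p = 0.524). The gene of sarcalumenin, Srl, a calcium-binding protein of the store, gave 297 and 290.3 in the knockdown, against 187 and 179.9 in the control (log2 0.63, SE 0.21, limma adjusted p = 0.15). Sypl2, which encodes mitsugumin 29 of the triad membrane, gave 166 and 177 in the knockdown, against 190.1 and 35.5 in the control (log2 0.86, limma adjusted p = 0.455). Its second control array lay in the background range, and the knockdown was 1.57-fold higher with that array put at its background. It passed without control replicate 1 (adjusted p = 0.0188), where that array in the background range was the only control left.

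The probe sets of Asph did not agree among themselves. This gene makes junctin, which anchors calsequestrin to the release channel, as well as the enzyme aspartyl beta-hydroxylase. Its brightest probe set, 1420959, gave 410.0 and 478 in the knockdown, against 687 and 617 in the control (log2 -0.54, SE 0.16, limma adjusted p = 0.126), and without knockdown replicate 2 it fell by 0.65 (adjusted p = 0.0298). Probe set 1450058 was also lower on both knockdown arrays (log2 -0.38, limma adjusted p = 0.399), and probe set 1425275 differed by 0.023 with overlapping groups. Probe set 1426015, named after its values were seen, rose to 696 and 748 in the knockdown, against 239 and 320.2 in the control (log2 1.33, SE 0.18, limma adjusted p = 0.0042). Its suffix marks sets that can match more than a single transcript. Of the 93 companion probe sets tested 3 were called higher and 0 lower, against 0.961% and 1.43% of all tested probe sets. Which transcript each Asph probe set reads was not established here, and probe set 1426015 did not pass with no filter (0.0582) or without the variance trend (0.188).

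Of the voltage sensor partners 7 of 13 were tested, with 0 calls. Stac3, the adaptor gene that couples sensor and release channel, gave 47.5 and 44.9 in the knockdown, against 50.9 and 124 in the control (log2 -0.64, limma adjusted p = 0.591). The first knockdown array lay in the background range there, and the knockdown was 1.34-fold lower with that array put at its background. In the T-tubule list 7 of 9 were tested, also with 0 calls. There Speg, a kinase gene of the triad, gave 591 and 899 in the knockdown against 421 and 428 in the control (log2 0.76, limma adjusted p = 0.0728). Speg passed under 5 of the other settings, with the lowest adjusted p, 3.73e-05 at a log2 difference of 1.055, without knockdown replicate 1. In the list of uptake 6 of 8 were tested, and apart from Atp2a3 none passed, with calreticulin and phospholamban, from Calr and Pln, at 0.089 and -0.025. In the list of store-operated entry, inositol trisphosphate receptors and export 9 of 15 were tested with 0 calls, and Atp2b1, a calcium pump gene of the surface membrane, differed by -0.45 (limma adjusted p = 0.191). Without knockdown replicate 2 it fell by 0.66 (adjusted p = 0.0035).

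**Figure D4:**
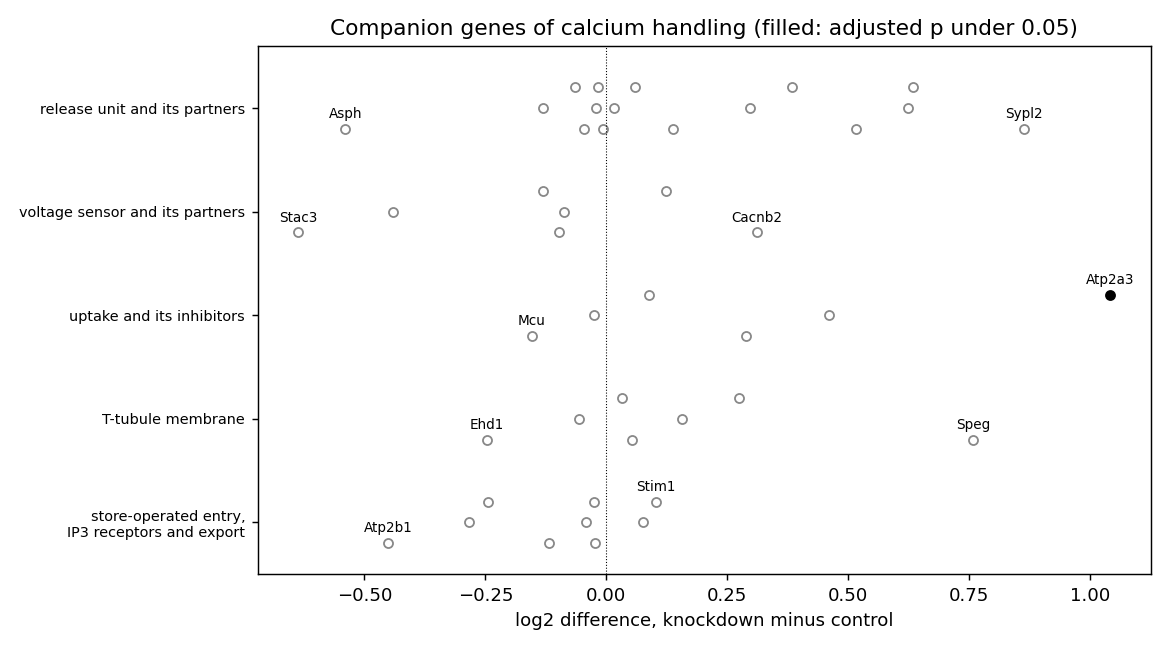
Log2 difference, knockdown minus control, of the 45 tested companion genes by list, with a small vertical offset to separate points and the outermost gene of each list named. Atp2a3, at 1.041, is the filled point and passed the test, and Jph3, Sypl2, Cacnb4, Stac3 and Pvalb each had 1 array in the background range.

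**Figure D5:**
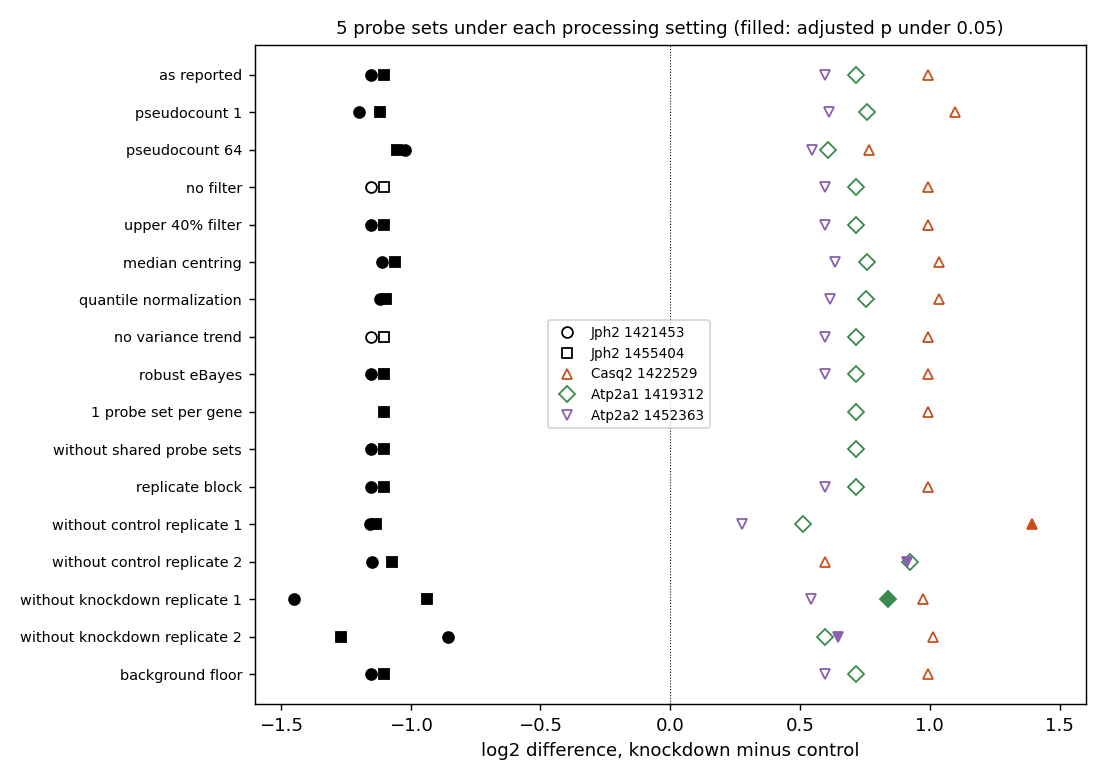
Log2 difference, knockdown minus control, of the 5 triad probe sets with an unadjusted p under 0.05, under the reported fit and each other processing setting (filled where the adjusted p was under 0.05, no point where a setting leaves the probe set out). Both Jph2 probe sets stay between -1.45 and -0.85, and the probe sets of Casq2, Atp2a1 and Atp2a2 stay above 0 and pass in a few settings that leave out 1 array.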

How the data were processed

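The deposited values are probe set intensities on a linear scale. Per the submitters' processing notes, the authors used MAS5 and GCOS (versions not given in the sources used here). Per the labels' protocols, biotin-labelled cRNA came from 100 ng of total RNA. Any scaling between arrays was not described, and the intensity values were used as deposited. Of 45101 probe sets 34945 had 1 gene in the array annotation, 932 several, 9160 none, and 64 were controls; 34741 symbols were matched by gene identifier to a RefSeq table. Signals were taken as log2(signal + 16), which understates changes of dim probe sets. Probe sets in the upper 60% by mean (signal 57.3) entered the fit. Knockdown minus control was tested per probe set with limma 3.58.1 (lmFit, eBayes with a variance trend) in R 4.3.3, two-sided, with Benjamini-Hochberg adjustment over 22893 probe sets and a threshold of 0.05; 2 residual degrees of freedom were joined by a prior of 9.60. The script was checked on simulated data whose noise depended on signal level alone, so the check does not test the choice of a variance trend. Background is the 95th percentile of 27 Bacillus control probe sets; a bound puts it in place of lower signals. The number of arrays limits precision, and p-values measure the spread between these cultures.

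The members and lists were chosen with earlier results of these data known. Each tested member is described with its values, and companions are named where they passed, with further ones chosen after their values were seen.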

Additional observations from a re-analysis of the deposited data

How the results depend on the processing

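Both Jph2 probe sets kept their sign in all settings run, with log2 differences of -1.45 to -0.85 for probe set 1421453 and -1.27 to -0.94 for probe set 1455404. Leaving out any 1 array kept both calls, although the remaining array of a group is then assumed to vary like the other group. The count of triad probe sets called lower, 2 as reported, was 0 with no filter, 0 without the variance trend and 1 with 1 probe set per gene, where Jph2 has a single probe set. The count called higher, 0 as reported, was 1 without each array in turn, and that was Casq2, Atp2a1 or Atp2a2 probe set 1452363 (the last of these without control replicate 2 or knockdown replicate 2). Of all probe sets 220 were called higher and 328 lower. The higher count was 22 with no filter, 359 with the upper 40% filter, 401 with median centring, 0 without the variance trend (2913 at an unadjusted p under 0.05), 132 without shared probe sets, 379 with the replicate block and 126 to 730 without 1 array. The lower count was 41 with no filter, 591 with the upper 40% filter, 0 without the trend, 207 with 1 probe set per gene and 171 to 1040 without 1 array. Control replicate 1 gave the low end of both ranges (126 and 171), and the counts were 730 and 699 without knockdown replicate 1 and 319 and 1040 without knockdown replicate 2. The share of calls that were higher was 40.1% as reported and 54.6% with median centring. Companion genes called higher, 1 as reported, were 0 with no filter and without the trend. The count was also 0 without shared probe sets, a setting that leaves the Atp2a3 probe sets out of the test. When 1 array was left out, the gene called was not always Atp2a3. Among the settings that kept every array, companion genes called higher were 2 with the upper 40% filter, 1 probe set per gene or the replicate block. Signals raised to background, an alternative chosen after seeing the data, also gave 2 companion genes called higher. Those called lower, 0 as reported, were 0 to 2 without 1 array. Probe sets near 0 changed sign when an array was left out: Jph1 1421520 (-0.18 to 0.30), Cacnb1 1425777 (-0.64 to 0.46), Ryr3 1427427 (-0.53 to 0.25) and Atp2a2 1427251 (-0.16 to 0.033) and 1437797 (-0.28 to 0.076). The cause of these shifts was not tested. The labels number the replicates but give no shared batch, and the deviations of same-numbered arrays correlated at r = 0.0095 across probe sets, so the numbers were not taken as pairs. With the replicate block the counts of triad calls stayed at 2 lower and 0 higher, with adjusted p = 0.0047 and 0.0189 for Jph2.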
